A study of Mus musculus with 4 samples.

Results

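The miR-29 family of mouse microRNAs was described from the 3 assays named mmu-miR-29a, mmu-miR-29b and mmu-miR-29c, chosen by assay name before the part number, out of 375 microRNA assays read in all 4 samples. Total RNA came from whole embryos of the C57BL/6 strain, taken at E18.5, 2 samples of wild-type genotype and 2 labelled ER-alpha KO, a knockout of the estrogen receptor encoded by Esr1. TaqMan real-time PCR gave a threshold cycle (Ct) for each assay from 1 well, so that more template gives an earlier Ct and a step of 1 cycle corresponds to about 1 log2 unit. The knockout allele, the sex of the embryos and the number of embryos in a sample are not given in the sources used here, so the p-values rest only on the variation seen among these samples, which may be technical. The study asked how microRNA levels differ between wild-type and ER-alpha KO embryos.

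MicroRNAs of the miR-29 family are known for binding mRNAs of the extracellular matrix, among them those of fibrillar collagens, elastin and fibrillin, and for lowering the yield of these proteins. Signalling by TGF-beta, which drives fibroblasts to lay down matrix, is known to lower miR-29 in several tissues. The family also acts on DNA methyltransferase mRNAs and accumulates in maturing neurons. The mRNA targets and the Esr1 transcript were not analysed here.

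The mature sequences are shown because the family's identity rests on a shared seed and because small differences set the members apart. RefSeq on mouse build GRCm38.p6 matched all 3 assays, taking an assay name without an arm as the 3p arm. The seed, bases 2 to 8 from the 5′ end, is in capitals.
mmu-miR-29a: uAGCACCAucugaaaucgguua
mmu-miR-29b: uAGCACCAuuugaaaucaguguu
mmu-miR-29c: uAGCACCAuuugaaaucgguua

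The seed AGCACCA was held by 3 of the 1679 mature mouse sequences in that table (0.179%), which were these 3. Counted from the 5′ end, miR-29a and miR-29c differed at 1 of 22 positions (C10U, with the base of miR-29a first) and shared the ending CGGUUA. From miR-29a to miR-29b, 4 of 22 positions differed (C10U, G18A, U21G and A22U), and miR-29b was 1 base longer. Its ending AGUGUU, known in human miR-29b as a signal for import into the nucleus, stood at the end of 2 of the 1679 mature sequences (0.119%), the other being mmu-miR-92b-5p. Whether the assays of miR-29a and miR-29c read each other's template was not tested.

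The family comes from 4 hairpins in 2 clusters, shown with the mature 3p arm in capitals because miR-29b is made from both clusters and its assay cannot tell them apart. Mir29a lies at chr6:31062660-31062747 and Mir29b-1 at chr6:31063023-31063093, both on the minus strand and 275 bases apart. Mir29b-2 lies at chr1:195037040-195037120 and Mir29c at chr1:195037547-195037634, both on the plus strand and 426 bases apart. All are annotated as microRNA genes of GRCm38.p6.
Mir29a: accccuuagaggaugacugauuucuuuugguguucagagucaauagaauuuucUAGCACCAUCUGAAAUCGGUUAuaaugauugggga
Mir29b-1: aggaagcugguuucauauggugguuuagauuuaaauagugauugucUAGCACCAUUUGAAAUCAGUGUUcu
Mir29b-2: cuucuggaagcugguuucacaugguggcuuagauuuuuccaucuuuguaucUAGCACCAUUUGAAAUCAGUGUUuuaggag
Mir29c: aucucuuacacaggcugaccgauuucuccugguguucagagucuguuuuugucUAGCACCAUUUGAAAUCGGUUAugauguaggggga

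PCR gives no read counts, and between 254 and 290 microRNAs were detected per sample at a Ct of 35 or lower. Of the tissue microRNAs listed for muscle, liver, brain, endothelium, epithelium, blood and mesenchyme, 15 of 15 assays were detected in all 4 samples (Ct 19.96 to 31.2). Of the 5 assays for pluripotent and placental cells, 3 (mmu-miR-291a-3p, mmu-miR-292-3p and mmu-miR-295) were detected late, from a Ct of 32.2, in the 3 samples other than wild-type replicate 1, where they read 36.2 to 37.3, and the others in 0 samples. Wild-type replicate 1 stood apart: after a shared constant of 0.273 was taken off, 89.9% of its amplified microRNA readings were at most 0.1 cycle away from a whole cycle, against 21.0% to 26.5% in the other samples. Its readings of miR-29a, miR-29b and miR-29c lay 0.075, 0.015 and 0.0010 cycles from a whole cycle. The 4 wells of the control U6 had SDs of 0.52 cycles in that sample and 0.062 to 0.18 in the others.

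The family spanned most of the detectable range, with miR-29a early, miR-29c in the middle and miR-29b at the edge of detection. The Ct of miR-29a was 27.2 in wild-type replicate 1, 25.9 in wild-type replicate 2, 25.9 in ER-alpha KO replicate 1 and 26.2 in KO replicate 2. For miR-29c it was 31.3 and 28.95 in wild-type and 29.1 and 29.5 in KO samples. For miR-29b it was 36.3 and 35.1 in wild-type and 34.9 and 39.2 in KO samples. Both miR-29a and miR-29c were latest in wild-type replicate 1, and miR-29b was latest in KO replicate 2.

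By rank from the earliest Ct, miR-29a stood at 53 of 336 amplified microRNAs in wild-type replicate 1, at 72 of 283 in wild-type replicate 2, at 66 of 286 in KO replicate 1 and at 80 of 283 in KO replicate 2. Ranks of miR-29c were 202 and 155 in the wild-type and 150 and 157 in KO samples. Those of miR-29b were 320 and 255 in the wild-type and 258 and 282 in KO samples. The order miR-29a, miR-29c, miR-29b was the same in 4 of 4 samples. It sets assays of unknown efficiency side by side, so the gaps describe assay readings and need not equal ratios of molecules. By mean Ct, miR-29a (26.3) lay between mmu-let-7e and mmu-miR-214, both also at 26.3, and miR-29c (29.7) between mmu-miR-296-5p (29.7) and mmu-miR-34a (29.8). These neighbours lay closer to the members than the spread between samples.

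**Figure D1:**
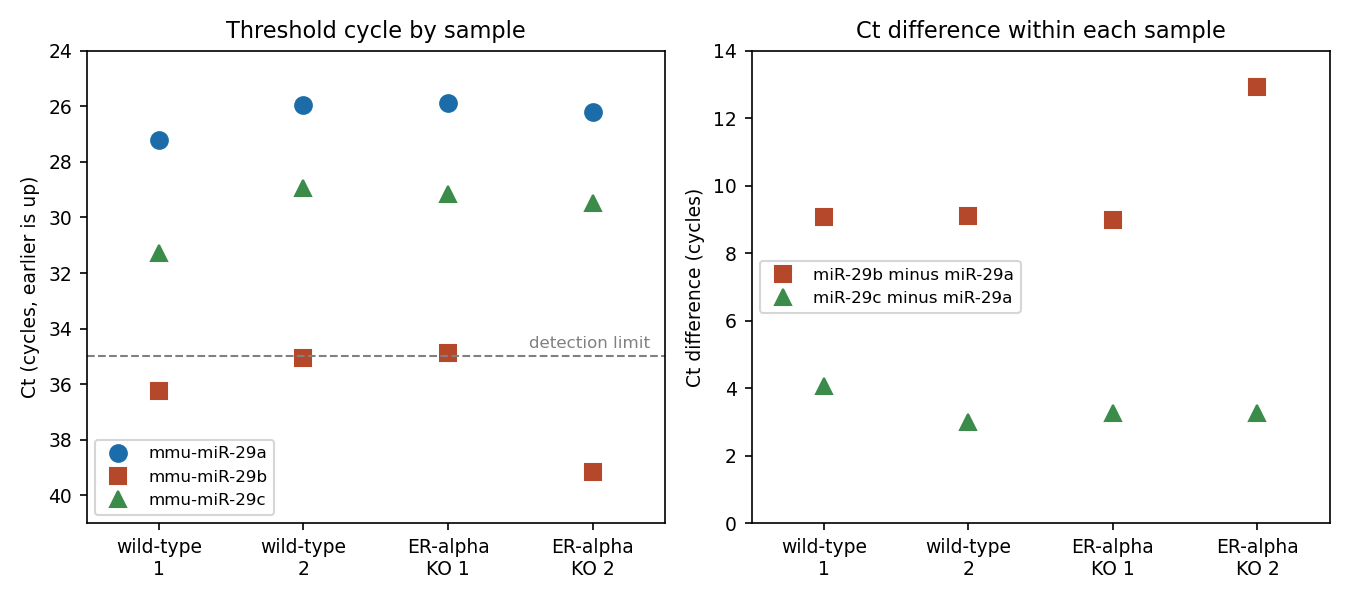
The left panel plots the Ct of the 3 miR-29 assays in each sample (earlier Ct upward, dashed line at the detection limit of 35). The right panel plots how many cycles later miR-29b (squares) and miR-29c (triangles) came up than miR-29a in the same sample. The gap to miR-29b was near 9 cycles in 3 samples and 12.9 in ER-alpha KO replicate 2.

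Gaps within a sample do not change when a scaling takes 1 value off all assays of that sample. The Ct of miR-29c came 4.07 and 3.005 cycles after miR-29a in wild-type samples and 3.27 and 3.25 in KO samples. The KO samples lay between the wild-type samples. The mean gap was 3.54 ± 0.76 cycles in wild-type and 3.26 ± 0.011 in KO embryos (SD, n = 2 each). The difference of KO minus wild-type was -0.28 (exact two-sided permutation p = 1). Without wild-type replicate 1 that difference was 0.26, so its direction rested on that sample. The level of miR-29a minus that of miR-29c is this same gap, and with quantile normalization, which reshapes each sample, the difference was -1.18.

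From miR-29a to miR-29b, its partner in the chromosome 6 cluster, the gap was 9.06 and 9.11 cycles in wild-type samples, 8.99 in KO replicate 1 and 12.9 in KO replicate 2. The gap stayed within 0.12 cycles over the first 3 and was larger in the last alone. That larger gap rests on 1 well of miR-29b at a Ct of 39.2, past the limit of 35 and close to the last cycle, 40. Readings of wild-type replicate 1 lay near whole cycles after its constant was taken off, and miR-29b was past the limit of 35 in both wild-type samples. Neither this closeness nor the small wild-type SD therefore gives the precision of the gap. Group means were 9.08 ± 0.033 in wild-type and 11.0 ± 2.8 in KO (SD, n = 2 each), a difference of 1.88 (exact two-sided permutation p = 1). Without KO replicate 2 the difference was -0.096. From miR-29c to miR-29b, partners in the chromosome 1 cluster, the gap was 4.99 and 6.10 cycles in wild-type and 5.72 and 9.68 in KO samples. The level of miR-29b minus that of miR-29c differed between genotypes by -2.16 (exact two-sided permutation p = 0.667), and by -0.18 without KO replicate 2. These were the 3 gaps compared, and with 2 samples in each group no p under 0.333 can be reached.

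The level of miR-29b was read at or below the limit of 35 in 1 of 4 samples, KO replicate 1. It therefore did not pass the filter and was left out of the main genotype test. On the scale of minus Ct centred on the median microRNA, its levels were -7.02 and -7.69 in the wild-type and -6.67 and -11.3 log2 units in KO samples. The genotypes overlapped, since the KO samples were the highest and the lowest of the 4. Means were -7.36 ± 0.47 in wild-type and -9.00 ± 3.3 in KO (SD, n = 2 each), a difference of -1.65 that was 0.68 without KO replicate 2. With no filter, limma gave an adjusted p = 0.875 for that difference of miR-29b.

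The KO samples were 4.29 cycles apart for miR-29b, and 1.21 cycles separated the wild-type samples. Among the 264 microRNAs amplified in all 4 samples, the median distance between the KO samples was 0.20 cycles for the 165 with a mean Ct earlier than 30, 0.65 for the 76 from 30 to 34 and 1.25 for the 23 at 34 or later. Of those 23, 0 had a larger distance than miR-29b, and of all 264, 1 did. Only 1 of the 264 had a later mean Ct than miR-29b (36.3). Between the KO samples, the distances of miR-29a (0.34) and miR-29c (0.33) lay among those of assays of like Ct. Between the wild-type samples the medians were 1.92 cycles earlier than 30, 1.78 from 30 to 34 and 2.13 at 34 or later. They did not rise steadily with Ct, and the wild-type distance of miR-29b (1.21) lay below each.

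**Figure D2:**
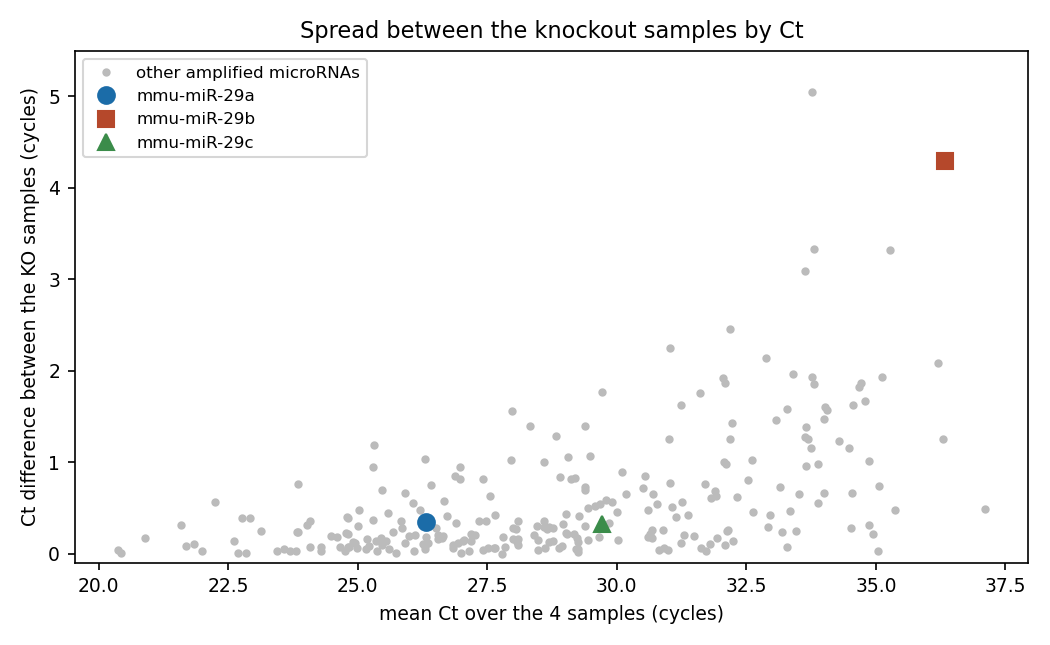
Each point is 1 of the 264 microRNAs amplified in all 4 samples, with the mean Ct across the samples and the absolute Ct difference between the 2 ER-alpha KO samples, both in cycles. The distances grow toward late Ct, and mmu-miR-29b (square) stands at 4.29 cycles while mmu-miR-29a (circle) and mmu-miR-29c (triangle) stand at 0.34 and 0.33.

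Levels of miR-29a, the earliest reading of the family, were 2.04 and 1.42 log2 units above the median microRNA in wild-type samples and 2.31 and 1.60 above it in KO samples. KO replicate 1 was the highest and wild-type replicate 2 the lowest, and the genotypes overlapped. Means were 1.73 ± 0.44 in wild-type and 1.96 ± 0.50 in KO (SD, n = 2 each). The level in KO was 1.17-fold that in wild-type embryos (log2 fold change 0.23, standard error 0.64, 95% interval -1.02 to 1.48, limma adjusted p = 0.939). In fold terms the interval ran from 0.49 to 2.80. Its standard error is shared by all tested microRNAs, so the interval does not measure the spread of miR-29a itself. In whole embryos, the number of cells that make a microRNA and its amount per cell cannot be told apart.

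Levels of miR-29c, whose only hairpin lies in the chromosome 1 cluster, were -2.04 and -1.59 in the wild-type and -0.95 and -1.65 in KO samples. KO replicate 1 was the highest, wild-type replicate 1 the lowest, and the genotypes overlapped. Means were -1.81 ± 0.32 in wild-type and -1.30 ± 0.49 in KO (SD, n = 2 each). The KO level was 1.42-fold that of wild-type (log2 fold change 0.51, standard error 0.64, 95% interval -0.74 to 1.76, limma adjusted p = 0.939). Its fold interval, from the same shared standard error, ran from 0.60 to 3.39.

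Neither tested member passed the test. Among the 229 microRNAs detected in all 4 samples, limma called 0 (0%) at an adjusted p of 0.05, and 10 (4.37%) had an unadjusted p under 0.05, 9 with ordinary variances. Sorted by p, miR-29c was 91 and miR-29a 171 of 229. Of the 229, 90 (39.3%) had genotypes that did not overlap, against 0 of the 2 members that were tested. Over all 229 the median log2 fold change was 0.26, and the fold changes minus that median were -0.032 for miR-29a and 0.25 for miR-29c. The full range over the 4 samples was 0.90 log2 units for miR-29a and 1.08 for miR-29c, where the median over all tested was 1.02.

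**Figure D3:**
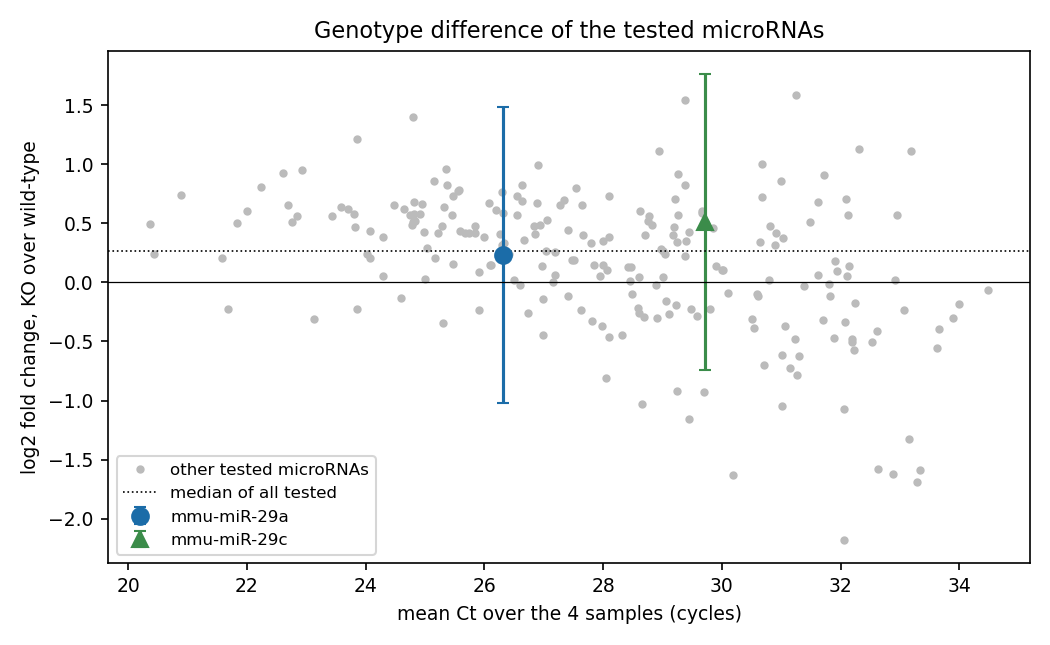
Each point is 1 of the 229 tested microRNAs, with its mean Ct in cycles and its log2 fold change of ER-alpha KO over wild-type. Bars are 95% intervals from limma for mmu-miR-29a (0.23) and mmu-miR-29c (0.51), and both cross 0 and the median of all tested microRNAs (0.26, dotted).

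The direction for miR-29a depended on the scaling. Its log2 fold change was -0.55 with quantile normalization, -0.080 with centring on the average profile and -0.066 with detection at a Ct of 32, and positive in the other 12 alternatives that kept all samples. Under quantile normalization the median of all tested microRNAs was 0.05, and the value of miR-29a minus it was -0.60. For miR-29c the value was positive in all 15 alternatives that kept all samples, from 0.20 (average profile) to 1.39 (scaled to the Y1 control alone), and it stood 0.16 to 0.59 above the median of all tested. Dropping the filter, adding a replicate block or changing the variances cannot alter either fold change. A scaling that takes 1 value off each sample shifts all microRNAs alike. These counts of alternatives are therefore not counts of independent checks. Without wild-type replicate 1 the value of miR-29c was 0.28, which minus that median was -0.016, and miR-29a then had 0.54.

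The panel's 5 controls are small RNAs of other kinds (the snoRNAs U87, snoRNA135 and snoRNA202, the spliceosomal MammU6 and the Y RNA Y1). Scaled to their mean Ct, miR-29a stood at -2.59 and -1.78 log2 units in wild-type and -1.58 and -1.77 in KO samples. On this scale both KO samples lay above both wild-type samples, with 0.0045 between the nearest pair. Of the 229 tested, 47 (20.5%) had both KO samples higher on this scale. The log2 fold change was 0.51 (limma adjusted p = 0.944). For miR-29c the control-scaled levels were -6.67 and -4.78 in the wild-type and -4.85 and -5.03 in KO samples, with a log2 fold change of 0.79 (limma adjusted p = 0.916). Wild-type replicate 1 was the lowest sample for both, and the other 3 samples lay within 0.20 log2 units of each other for miR-29a and within 0.24 for miR-29c. The controls themselves differed between genotypes in KO minus wild-type Ct by 0.58 for Y1, by 0.14 for U87, by -0.23 for MammU6 and by -0.27 and -0.28 for snoRNA135 and snoRNA202. Scaled to 1 control alone, the log2 fold change of miR-29a was 0.29 with MammU6, 0.66 with U87, 1.11 with Y1, 0.25 with snoRNA135 and 0.25 with snoRNA202, so the choice of control moved its size and kept its direction. The values of miR-29c ran from 0.53 (snoRNA202) to 1.39 (Y1).

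**Figure D4:**
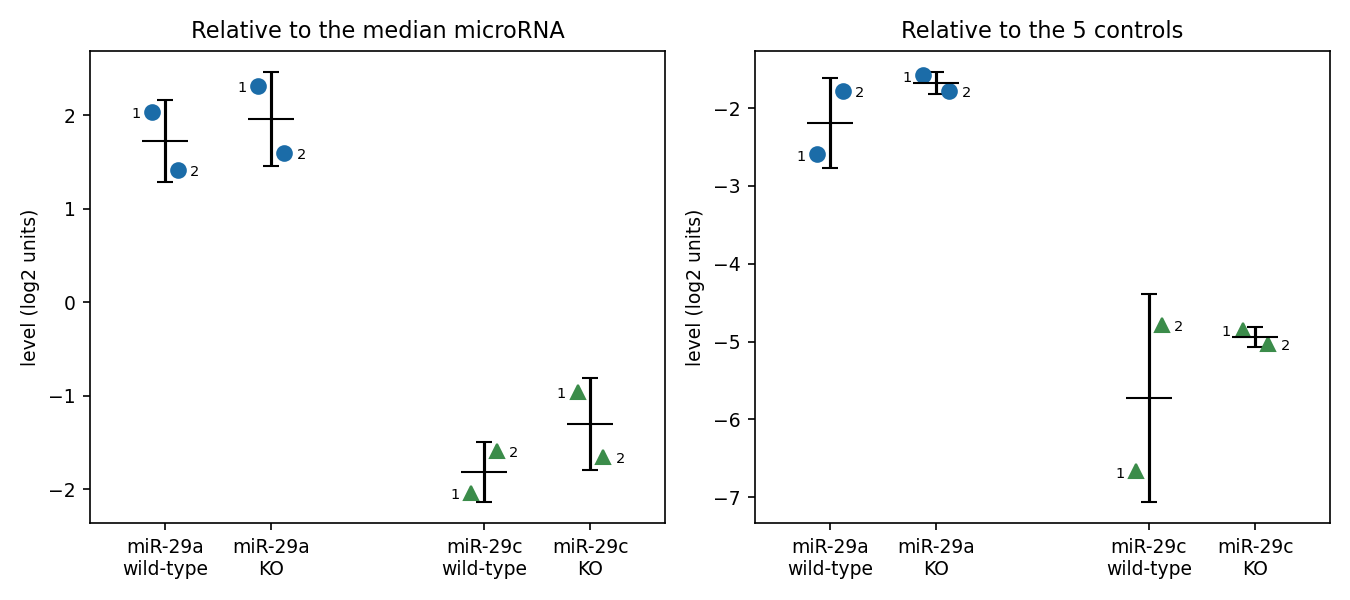
Levels in log2 units of mmu-miR-29a (circles) and mmu-miR-29c (triangles), relative to the median microRNA (left) and to the 5 controls (right); numbers mark replicates, horizontal bars the group means and error bars the SD (n = 2). On the control scale wild-type replicate 1 is the lowest sample for both microRNAs, and the other 3 lie close together. The median of the tested microRNAs is also lowest in that sample on this scale.

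**Figure D5:**
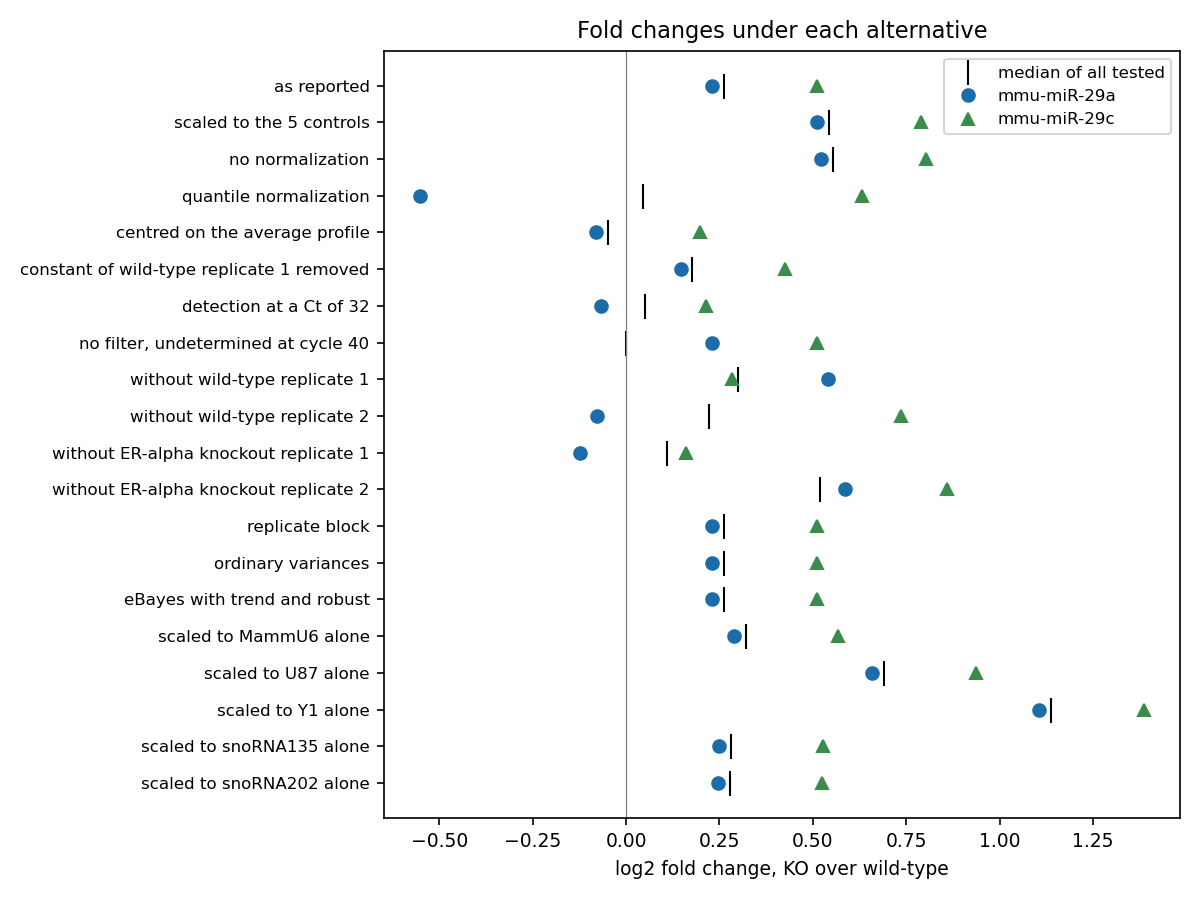
Log2 fold changes of ER-alpha KO over wild-type for mmu-miR-29a (circles) and mmu-miR-29c (triangles) under each processing alternative, with the median of all tested microRNAs as a vertical tick. Circles lie on both sides of 0, from -0.55 to 1.11, and triangles lie between 0.16 and 1.39.

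The profiles of miR-29a and miR-29c over the 4 samples were compared with those of all other tested microRNAs, after each was centred on its own mean. The measure was the root mean square difference in log2 units, over 4 samples, given as a description. Closest to miR-29a were mmu-miR-214 (0.075), a mesenchymal microRNA, mmu-miR-331-3p (0.079) and mmu-miR-194 (0.081), a liver and gut microRNA. Closest to miR-29c were mmu-miR-224 (0.072), mmu-miR-140 (0.077), a cartilage microRNA, and mmu-miR-192 (0.086), the partner of miR-194 in liver and gut. Whether these neighbours stay closest with a sample left out was not tested, nor was any link to their tissues. Between miR-29a and miR-29c the difference was 0.40, which put miR-29c in place 112 of 228 by closeness to miR-29a, with a median over all of 0.41. Without wild-type replicate 1 it was 0.12 (place 27, median 0.24). With each other sample left out it was 0.38 to 0.46.

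Other microRNAs reported to act on matrix genes or TGF-beta signalling were read beside the family. Assay names matched 17 of the 18 entries, and all 17 assays were tested. Of the 17, 0 rose and 0 fell at an adjusted p of 0.05 (limma), and 1 had an unadjusted p under 0.05. That 1 was mmu-miR-199a-5p, whose value rested on wild-type replicate 1. Values were positive for 14 and negative for 3, where 156 of all 229 tested (68.1%) were positive, with a median log2 fold change of 0.38 against 0.26 for all tested, and 10 lay above that median. Without wild-type replicate 1 the medians were 0.43 and 0.30.

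The largest absolute value in that list was that of mmu-miR-199a-5p, a mesenchymal and fibroblast microRNA, at -1.58. Its levels were -2.002 and -5.38 in the wild-type and -5.32 and -5.23 in KO samples, so wild-type replicate 1 alone was high, and without it the value was 0.11. The other arm of the same hairpins, mmu-miR-199a-3p, had 0.58 (0.49 without that sample). Values were 0.91 for mmu-miR-155, of inflammatory cells (0.50 without wild-type replicate 1), 0.51 for mmu-miR-140 (0.39) and 0.51 for mmu-miR-192 (0.40). For the muscle microRNA mmu-miR-133a, which acts on connective tissue growth factor mRNA, the value was 0.49 (0.93 without that sample). For mmu-miR-214 it was 0.33, with levels of 1.98 and 1.34 in wild-type and 2.27 and 1.71 in KO samples, the same order of samples as miR-29a. It was named for having the profile closest to miR-29a, so this shared order comes with that choice.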

How the data were processed

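MicroRNAs were read by TaqMan PCR (Applied Biosystems 7900HT, 40 cycles) in total RNA of 4 whole-embryo samples, per the labels' protocols. Values deposited are Ct scores, 1 well per assay and 4 for U6, per the file headers; threshold, baseline and earlier normalization are not given in the sources used here. In wild-type replicate 1 no well is marked undetermined, 39 stand past cycle 40 and were treated as not amplified, and its constant of 0.273 was kept. Levels are minus Ct, after the median Ct of the 229 microRNAs at a Ct of 35 or lower in all 4 samples was taken off in each sample. The genotypes were tested by limma 3.58.1 (R 4.3.3; lmFit, eBayes, group only, two-sided, Benjamini-Hochberg over 229). Its prior degrees of freedom were infinite, which gives every assay the same standard error. Gaps within samples had exact permutation tests (scipy 1.17.1, Python 3.11.15). The fit was run on simulated levels with the same SD for every assay. That run cannot show how the fit handles spreads that differ between assays or readings near whole cycles.

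The members, lists and alternatives were chosen with earlier results of these data known. Named microRNAs were the 3 members, up to 6 of the matrix list by absolute fold change, the 3 closest profiles to each tested member, the controls and the neighbours in mean Ct. Alternatives were other scalings, detection limits and variances, each sample left out and a replicate block. Scaling to each control alone, quantile normalization of a gap, and leaving out samples in the profile comparison, were added after seeing the data. Sequences are RefSeq's.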

Additional observations from a re-analysis of the deposited data

How the results depend on the processing

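For miR-29a the log2 fold change of 0.23 reversed with quantile normalization (-0.55), centring on the average profile (-0.080) and detection at a Ct of 32 (-0.066). Leaving out 1 sample in turn gave -0.12 to 0.59 for miR-29a, -3.98 to 0.68 for miR-29b and 0.16 to 0.86 for miR-29c. It gave -0.096 to 3.85 for the level of miR-29a minus miR-29b, -0.81 to 0.26 for miR-29a minus miR-29c and -4.14 to -0.18 for miR-29b minus miR-29c. For the tested members, the smallest limma adjusted p over all alternatives was 0.418 for miR-29a and 0.370 for miR-29c. A replicate block made from the replicate number cannot change the fold changes in this balanced design (0.23 for miR-29a and 0.51 for miR-29c). With that block their limma adjusted p were 0.854 and 0.756, and 1 microRNA outside the family passed. Deviations of samples with the same number correlated at 0.37 across the 229 assays; the labels do not say what the numbers stand for, so the samples were kept unpaired. The count past the threshold was 0 to 13 with a sample left out (13 without wild-type replicate 2), where the lone sample is assumed to vary like the other group, 1 with the replicate block and 0 in the other alternatives. The cause was not tested. For miR-29b, quantile normalization, ordinary variances and the trend setting gave no value, since it was not among the tested microRNAs. Samples of 2 per group and 1 well per assay limit the precision, most of all for miR-29b, read at a Ct of 34.9 to 39.2.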
